A study of Mus musculus with 4 samples.

Results

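RA and bexarotene, which are ligands of retinoid receptors, were given to mouse embryoid bodies (EBs). The comparison described here sets the EBs of both treatments against the undifferentiated ES cells they came from. The ligand-treated EBs were represented by the mean of the RA array and the bexarotene array, and the ES cells by 1 array. These 3 arrays are 3 of the 4 in the series, and the array of untreated EBs served as a reference that shows which genes differed from ES cells without ligand. Every gene with a probe set that carries exactly 1 gene symbol was included, which gave 21789 of the 35556 probe sets and 19938 genes.

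ES cells are kept in a state from which every tissue of the embryo can form. When they are left to aggregate into EBs, the pluripotency programme is shut down and the first derivatives of ectoderm, mesoderm and endoderm appear, without the layout of an embryo. RA is the ligand of the RAR receptors, which bind DNA as heterodimers with RXR, and in the embryo it sets position along the axis of the hindbrain and spinal cord, promotes the formation of neurons and acts on somites, heart and endoderm. Bexarotene binds RXR, the partner that RAR shares with other nuclear receptors such as LXR and PPAR.

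The ES cells were at day 0 and untreated. All EBs were collected at day 7, after 2 days in hanging drops followed by 5 days in suspension. They received no ligand, RA, or bexarotene at 50 nM, and the dose of RA is 5 µM in the sample labels and 10 nM in the published methods, so the accounts do not match. Each condition is 1 culture read on 1 array, so the RA and bexarotene arrays are different treatments and no replicates of each other, and day, aggregation and array cannot be told apart in any difference from ES cells. For that reason no test was made and no error can be given. Both ligand arrays are printed for many of the genes. Where a gene has only a fold or a log2 difference, it is that of their mean. A gene is called higher or lower where the mean of both ligand arrays was past 1.5-fold, which is 0.58 on the log2 scale, and such a call is a difference between arrays. Signals are log2 values as the authors normalized them, and they are compared between arrays for 1 gene or for the sum over a fixed set of markers, never between genes. An EB is a mixture of cells, so fewer cells of a type and less RNA per cell cannot be told apart.

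The median signal was between 6.66 and 6.69 on the 4 arrays, and the median over probe sets with 1 symbol was 7.28, the level used below as the array median. The RA and bexarotene arrays were close to each other, with a median absolute difference of 0.08 and 95% of genes within 1.21-fold.

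Ligand-treated EBs were higher than ES cells for 2038 genes, which is 10.2% of all genes compared, and lower for 1866 genes, 9.36% of them. The other 16034 genes were within 1.5-fold, and the median difference over all genes was -0.02. For 1838 of the higher and 1644 of the lower genes the RA array and the bexarotene array were each past 1.5-fold, while 200 and 222 genes were carried over the threshold by 1 of the 2 arrays. In none of the called genes did the ligand arrays lie on opposite sides of ES cells. A gap of 1.5-fold or more between RA and bexarotene was seen in 59 of the higher and 6 of the lower genes. The large differences were mostly upward: 268 genes were past 4-fold higher and 121 lower, 74 were past 8-fold higher and 16 lower, and 9 higher genes and 0 lower genes were past 16-fold. At the threshold itself, Rspo3 lay just inside the higher group at 0.5850 and Fgfr1 just outside it at 0.5849, and Arhgap23 lay just inside the lower group at -0.5852 and Rec8 just outside it at -0.5847. Signals below the array median on all 4 arrays made up 249 of the higher and 284 of the lower genes.

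The labelled cell types were first checked against defining markers. The ES cell array carried the pluripotency factors, with Pou5f1 at 11.67, Nanog at 11.65, Sox2 at 11.43, Esrrb at 10.92 and Zfp42 at 10.07, while Dppa3 was at 5.65, below the array median. In ligand-treated EBs 6 of these 8 ES cell markers were lower, 5 of 6 neural progenitor markers were higher, 6 of 8 neuronal markers were higher and 1 was lower, and 5 of 6 markers of visceral endoderm were higher. The neuronal markers Tubb3 and Elavl3 were past 1.5-fold through the RA array, with bexarotene at 1.43-fold and 1.44-fold. None of 5 skeletal muscle markers (Myod1, Myf5, Myog, Myh3 and Ckm) was past 1.5-fold, and all 5 lay at or below the array median on every array. Of 8 fibroblast markers that feeder cells would carry, 2 were higher and 1 lower, and their summed signal on the linear scale ranged from 845 in ES cells to 1048 with RA and 1011 with bexarotene, against 1445 in untreated EBs. The neuronal markers were not empty in the ES cell array: Stmn2, a tubulin-binding protein of growing axons, had a signal of 11.68 in ES cells and 10.48 (untreated), 10.66 (RA) and 10.30 (bexarotene) in EBs, and it was the marker that was lower. Summed on the linear scale, the neuronal markers came to 4081 in ES cells and to 2438 (untreated), 4155 (RA) and 2955 (bexarotene) in EBs. Stmn2 weighs heavily in these sums, most of all in that of ES cells. The sums therefore do not describe the other neuronal markers, of which 6 were higher with ligand. The source of the Stmn2 signal in ES cells was not tested.

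The pluripotency programme of ES cells was lower in ligand-treated EBs. Of 16 naive pluripotency factors, 14 were lower and 0 were higher, with a median difference of -1.90 on the log2 scale. The largest difference among them was that of Nr0b1, an orphan nuclear receptor of ES cells, with 12.07 in ES cells and 7.37 (untreated), 8.74 (RA) and 8.22 (bexarotene) in EBs, 12.1-fold lower than ES cells with ligand. Zfp42, the zinc finger protein also known as Rex1, had 10.07 in ES cells and 6.14 (untreated), 6.80 (RA) and 6.50 (bexarotene) in EBs, which is 10.7-fold lower. Esrrb, an orphan nuclear receptor that sustains self-renewal, had 10.92 in ES cells and 7.40 (untreated), 8.10 (RA) and 7.78 (bexarotene) in EBs, 7.91-fold lower. In each of these genes the ES cell array stood far above the EB arrays, and among the EBs the untreated array was the lowest. Fgf4, the growth factor through which ES cells prime themselves for differentiation, was 5.96-fold lower, with 11.12 in ES cells and 7.99 (untreated), 8.66 (RA) and 8.42 (bexarotene) in EBs. Nr5a2, a nuclear receptor upstream of Pou5f1, was 5.72-fold lower and had 9.43 in ES cells and 6.52 (untreated), 7.05 (RA) and 6.78 (bexarotene) in EBs. Tcl1, a coactivator of the AKT kinase, was 5.30-fold lower. Stat3, the transducer of LIF, and Dppa3 were within 1.5-fold, at -0.46 and 0.18.

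Lower than ES cells with ligand did not mean as low as without it. All 16 naive factors had a higher signal in both ligand arrays than in untreated EBs, where 38.5% of all genes lay in that order and 40.5% in the reverse order. The median difference from untreated EBs was 0.37 for the naive factors and -0.0036 for all genes, and the median difference of untreated EBs from ES cells was -2.53. The gaps between ligand-treated and untreated EBs were small next to those from ES cells. Nr0b1 was 2.16-fold higher with ligand than without, Zfp42 1.42-fold and Esrrb 1.46-fold. Jam2, a junctional adhesion molecule of the ES cell surface, showed the same order with 10.97 in ES cells and 8.28 (untreated), 10.003 (RA) and 9.65 (bexarotene) in EBs, and so did Dppa2, a nuclear protein of ES and germ cells, with 11.77 in ES cells and 9.01 (untreated), 10.21 (RA) and 9.83 (bexarotene) in EBs. Each of these ran from ES cells down through RA and bexarotene to untreated EBs.

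**Figure D1:**
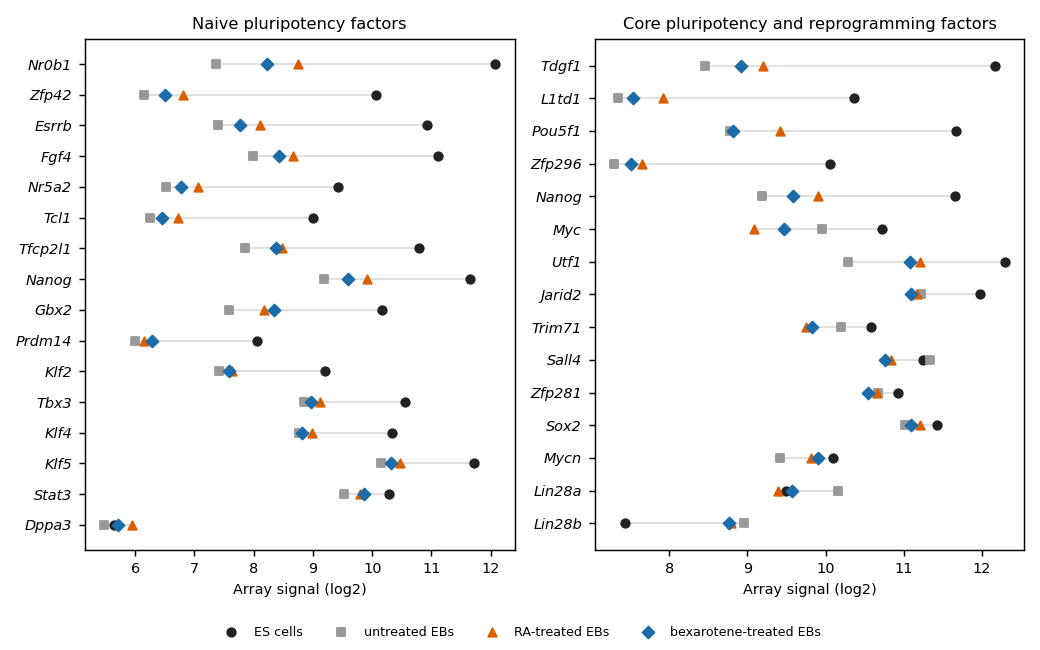
Log2 array signal of 16 naive pluripotency factors and 15 core pluripotency and reprogramming factors in ES cells (circles), untreated EBs (squares), RA-treated EBs (triangles) and bexarotene-treated EBs (diamonds), with 1 array per condition and genes ordered by the difference from ES cells. ES cells lie to the right of all EBs for 15 of the naive factors, with Dppa3 the exception, and both ligand arrays lie to the right of the untreated array for all 16.

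The core factors were split. Of 15, 9 were lower, 1 was higher and 5 were within 1.5-fold, with a median of -0.85. Pou5f1, the POU factor at the centre of the network, was 5.89-fold lower, with 11.67 in ES cells and 8.78 (untreated), 9.42 (RA) and 8.81 (bexarotene) in EBs. Tdgf1, the coreceptor of Nodal known as Cripto, was 8.65-fold lower, with 12.17 in ES cells and 8.46 (untreated), 9.20 (RA) and 8.91 (bexarotene) in EBs. L1td1, an RNA-binding protein of pluripotent cells, was 6.22-fold lower and Zfp296 5.57-fold. By contrast Sox2, which pluripotent cells share with neural progenitors, had 11.43 in ES cells and 11.02 (untreated), 11.21 (RA) and 11.10 (bexarotene) in EBs, a difference of -0.28. Sall4, Lin28a, Mycn and Zfp281 were also within 1.5-fold. The higher gene was Lin28b, a paralog of Lin28a that blocks let-7 maturation, with 7.43 in ES cells and 8.95 (untreated), 8.78 (RA) and 8.77 (bexarotene) in EBs. Utf1, a chromatin protein of ES cells, stood between the ES and untreated arrays, with 12.29 in ES cells and 10.29 (untreated), 11.21 (RA) and 11.08 (bexarotene) in EBs.

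Other ES cell genes went the way of the naive factors. Of 23 Dppa genes and other ES cell markers, 18 were lower and 0 higher, with a median of -1.14. The largest differences were in Gdf3, a TGF-beta family ligand, at -2.76, Dppa4 at -2.64, Dnmt3l, the cofactor of the de novo DNA methyltransferases, at -2.54, and the amino acid transporter Slc7a3 at -2.37. Of 20 two-cell and germline genes, 10 were lower and 4 higher. The lower ones included Mael, which acts in the silencing of transposons, with 9.95 in ES cells and 6.63 (untreated), 7.55 (RA) and 7.53 (bexarotene) in EBs, Tdrd12 at -1.81 and Ddx4 at -1.63. The higher ones included Tdrkh, a Tudor protein of the piRNA pathway, with 5.94 in ES cells and 7.93 (untreated), 8.15 (RA) and 7.98 (bexarotene) in EBs, and the X-linked homeobox gene Rhox9, with 8.07 in ES cells and 8.32 (untreated), 9.87 (RA) and 9.81 (bexarotene) in EBs. Rhox9 was high in both ligand arrays and similar in ES cells and untreated EBs.

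Outside these lists, the largest lower differences belonged to genes of varied roles. Laptm5, a lysosomal membrane protein best known from blood cells, had 11.40 in ES cells and 7.30 (untreated), 7.94 (RA) and 7.60 (bexarotene) in EBs, 12.4-fold lower. Nqo1, a quinone reductase of the oxidative stress response, had 9.86 in ES cells and 6.14 (untreated), 6.33 (RA) and 6.15 (bexarotene) in EBs, 12.3-fold lower. Cbr3, a carbonyl reductase, was 9.99-fold lower, and Cth, which makes cysteine from cystathionine, was 8.84-fold lower. Both enzymes had their highest signal in ES cells. Spry4, a feedback inhibitor of FGF signalling, was 8.64-fold lower, with 11.40 in ES cells and 8.05 (untreated), 8.47 (RA) and 8.12 (bexarotene) in EBs. Platr8, a long noncoding RNA of pluripotent cells, was 11.9-fold lower, with low signals in EBs and a log2 difference of -2.27 in place of -3.58 when signals were raised to the 25th percentile. Lrrc34, Accsl, Septin1, Tgm1, Fetub, Hsd17b14, Stat4, Liph, Zfp640 and Bin2 were between 7.34-fold and 11.7-fold lower. In Zfp640 the ligand arrays, at 7.69 and 7.58, stood above the 6.78 of untreated EBs.

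The largest difference in either direction was that of Fabp7, the brain fatty acid binding protein of radial glia. It had 5.28 in ES cells and 8.94 (untreated), 11.91 (RA) and 11.60 (bexarotene) in EBs, 89.0-fold higher than ES cells with ligand and 12.7-fold higher without. Ednrb, the endothelin receptor of neural crest and neural progenitors, had 6.18 in ES cells and 7.58 (untreated), 10.59 (RA) and 10.48 (bexarotene) in EBs, 20.5-fold higher with ligand. Both genes were highest in the ligand arrays. Igfbp5, which binds insulin-like growth factors, had 5.77 in ES cells and 11.59 (untreated), 10.30 (RA) and 10.24 (bexarotene) in EBs, 22.6-fold higher. Frzb, a secreted Wnt antagonist, had 5.0 in ES cells and 10.39 (untreated), 9.39 (RA) and 9.70 (bexarotene) in EBs, 23.3-fold higher. These 2 secreted proteins were highest in untreated EBs. Ctsh, a lysosomal protease, was 24.4-fold higher, with 5.66 in ES cells and 10.04 (untreated), 10.35 (RA) and 10.19 (bexarotene) in EBs. Skida1 was 18.6-fold, the atypical cadherin Fat3 17.8-fold, the classical cadherin Cdh11 15.8-fold and the leucine-rich repeat membrane protein Lrrn1 15.3-fold higher. Dach1, a transcriptional cofactor that works with Eya proteins, was 14.3-fold higher, the repressor Zeb2 13.1-fold, the water channel Aqp8 12.7-fold, the VEGF receptor Flt1 12.6-fold and the choline transporter-like protein Slc44a5 by 3.58 on the log2 scale. Fat3 is read by several probe sets, and their mean gave a log2 difference of 2.80 in place of 4.15. Fat3, Lrrn1, Dach1 and Slc44a5 were past 1.5-fold higher in both ligand arrays than in untreated EBs. Ctsh, Skida1, Aqp8 and Flt1 were also higher in both than in untreated EBs, by less than 1.5-fold.

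Neural progenitor and radial glia genes were the list with the highest median. Of 28, 23 were higher and 0 lower, beside 10.2% and 9.36% of all genes, with a median of 1.69 against -0.02 over all genes. Pax6, a transcription factor of neural progenitors, had 6.29 in ES cells and 8.13 (untreated), 9.56 (RA) and 9.55 (bexarotene) in EBs. Nes, the intermediate filament nestin, had 7.89 in ES cells and 8.77 (untreated), 10.03 (RA) and 9.95 (bexarotene) in EBs. Pou3f2, a POU factor of neural progenitors and early neurons, had 6.98 in ES cells and 8.14 (untreated), 9.68 (RA) and 9.61 (bexarotene) in EBs. In all 3 the order was ES cells, untreated EBs, then both ligand arrays. Cdh2, which replaces E-cadherin when the neural plate forms, had 7.47 in ES cells and 10.88 (untreated), 10.83 (RA) and 10.88 (bexarotene) in EBs, and so was as high without ligand as with it. Plagl1, an imprinted zinc finger gene, was 9.31-fold higher, Pou3f4 8.03-fold, Zbtb16 11.1-fold and the orphan nuclear receptor Nr2f1 14.9-fold. Sox1, the early marker of neural plate, was past the threshold by less, at 0.83, with 8.68 in ES cells and 9.37 (untreated), 9.53 (RA) and 9.48 (bexarotene) in EBs. The median of this list in untreated EBs was 1.28, with 18 of 28 higher.

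Neuronal genes were also higher, by less as a list. Of 43 proneural and neuronal differentiation factors, 21 were higher and 0 lower (median 0.57), against 13 higher and 2 lower and a median of 0.12 in untreated EBs. Nhlh1, a bHLH factor of newborn neurons, had 5.50 in ES cells and 6.29 (untreated), 9.52 (RA) and 8.91 (bexarotene) in EBs, 13.1-fold higher with ligand. Neurod4, another bHLH factor of this stage, had 5.87 in ES cells and 6.24 (untreated), 9.34 (RA) and 8.91 (bexarotene) in EBs, 9.57-fold higher. Ebf3 and Ebf2, helix-loop-helix factors of migrating neurons, were 7.50-fold and 7.23-fold higher. All 4 had higher signals with RA than with bexarotene, and both ligand arrays were above untreated EBs. Prox1 and Sox11, by contrast, had about the same signal in all EBs: Prox1 had 5.33 in ES cells and 8.04 (untreated), 8.26 (RA) and 7.99 (bexarotene) in EBs, and Sox11 had 7.82 in ES cells and 10.35 (untreated), 10.49 (RA) and 10.48 (bexarotene) in EBs.

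Among 39 genes of the neuronal cytoskeleton, growth cone and RNA-binding proteins, 22 were higher and 4 lower. The median difference was 1.07 for the RA array and 0.52 for the bexarotene array. Dcx, the microtubule protein of migrating neurons, had 5.18 in ES cells and 5.65 (untreated), 8.81 (RA) and 7.86 (bexarotene) in EBs, 8.92-fold higher. Robo2, the Slit receptor, had 6.12 in ES cells and 7.95 (untreated), 9.23 (RA) and 9.44 (bexarotene) in EBs, 9.27-fold higher. Elavl4, an RNA-binding protein of neurons, had 5.41 in ES cells and 6.55 (untreated), 8.52 (RA) and 8.0 (bexarotene) in EBs, 7.19-fold higher. In Dcx and Elavl4 the RA array was the highest, and in Robo2 the bexarotene array. Dpysl2, which promotes axon growth, was 5.92-fold higher, the adhesion molecule Nrcam 5.27-fold and the netrin receptor Dcc 4.63-fold. The 4 lower genes were Nefh, Stmn2, Celf5 and Prph. Nefh, the heavy neurofilament, had 9.61 in ES cells and 7.51 (untreated), 7.52 (RA) and 7.55 (bexarotene) in EBs, a difference of -2.08, while the medium neurofilament Nefm was 4.42-fold higher.

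Genes of mature neurons and of glia were mostly within 1.5-fold, but by smaller shares than the 80.4% of all genes. Of 39 synapse and excitability genes, 8 (20.5%) were higher and 2 (5.13%) lower (median 0.23), beside 10.2% and 9.36% of all genes. The acetylcholine receptor subunit Chrna3 had 6.08 in ES cells and 7.02 (untreated), 9.57 (RA) and 9.40 (bexarotene) in EBs, 10.6-fold higher, and Chrna4 had 7.05 in ES cells and 9.15 (untreated), 10.42 (RA) and 10.03 (bexarotene) in EBs, 9.04-fold higher. Glra1, a glycine receptor subunit, had 5.22 in ES cells and 5.06 (untreated), 7.60 (RA) and 8.03 (bexarotene) in EBs. These receptor subunits were highest in the ligand arrays. Syn1, the synaptic vesicle protein synapsin, was 2.76-fold lower than in ES cells. Of 14 glial genes 6 (42.9%) were higher and 0 lower. Among the higher ones were Fabp7 and Pdgfra, which are shared with progenitors and mesenchyme. Of 4 measured markers of astrocytes and oligodendrocytes, Gfap and Aqp4 were within 1.5-fold, and Mbp and Sox10 were 1.68-fold and 1.55-fold higher.

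Genes of axial position set EBs with ligand apart from those without. Of 14 Hox genes of paralog groups 1 to 5, which pattern the hindbrain and neck, 6 were higher with ligand and 0 in untreated EBs. Hoxa2 had 5.27 in ES cells and 5.71 (untreated), 8.52 (RA) and 8.81 (bexarotene) in EBs, 10.5-fold higher than ES cells. Hoxb2 had 6.73 in ES cells and 6.52 (untreated), 9.58 (RA) and 10.01 (bexarotene) in EBs, 8.35-fold higher. Hoxb1 had 6.65 in ES cells and 6.61 (untreated), 9.25 (RA) and 10.02 (bexarotene) in EBs, 7.92-fold higher. For each of them the ES and untreated arrays lay close together and both ligand arrays were far above. Hoxb3 was 3.90-fold, Hoxb4 2.10-fold and Hoxa3 2.09-fold higher, and the other 8 lay between 0.01 for Hoxb5 and 0.50 for Hoxa5. None of 23 Hox genes of groups 6 to 13, which pattern trunk and tail, was past 1.5-fold with ligand, with differences from -0.51 to 0.27 and a median of -0.07. In untreated EBs 2 of them were past 1.5-fold lower. All 23 had signals below the median of each array, which limits what can be seen of them. On all arrays 5 of the 23 were below the lower quartile of signals, as were 3 of the 14 of groups 1 to 5.

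The lists of regional neural tube genes differed in how they stood beside untreated EBs. Of 30 hindbrain and spinal cord progenitor genes, 16 were higher with ligand, with a median of 0.81, against 14 and a median of 0.51 in untreated EBs, and 0 were lower in either. Among them the homeobox gene Dbx1, expressed by intermediate spinal progenitors, had 7.31 in ES cells and 8.73 (untreated), 10.43 (RA) and 10.34 (bexarotene) in EBs, 8.40-fold higher. Pax3, of the dorsal neural tube, neural crest and somites, had 5.56 in ES cells and 7.45 (untreated), 8.06 (RA) and 8.45 (bexarotene) in EBs, 6.49-fold higher. Nkx6-1, of the ventral neural tube, had 6.85 in ES cells and 9.45 (untreated), 9.11 (RA) and 8.78 (bexarotene) in EBs, 4.26-fold higher. Dbx1 and Pax3 were highest with ligand and Nkx6-1 without it. Of 29 forebrain and midbrain progenitor genes, 11 were higher with ligand, with a median of 0.27, against 18 and a median of 1.06 in untreated EBs. Otx2, a head homeobox gene, had 9.82 in ES cells and 11.64 (untreated), 10.29 (RA) and 9.65 (bexarotene) in EBs, and Six3, of the anterior forebrain, had 6.45 in ES cells and 8.90 (untreated), 6.65 (RA) and 6.35 (bexarotene) in EBs. Hesx1, of the anterior forebrain and pituitary, had 6.85 in ES cells and 10.10 (untreated), 7.09 (RA) and 6.54 (bexarotene) in EBs. The ligand arrays of these 3 genes were near the ES cell level. Wnt1, a signal of the midbrain and dorsal neural tube, was 5.02-fold higher than ES cells with ligand, and Fezf1 2.47-fold, with 8.16 with RA and 7.31 with bexarotene.

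**Figure D2:**
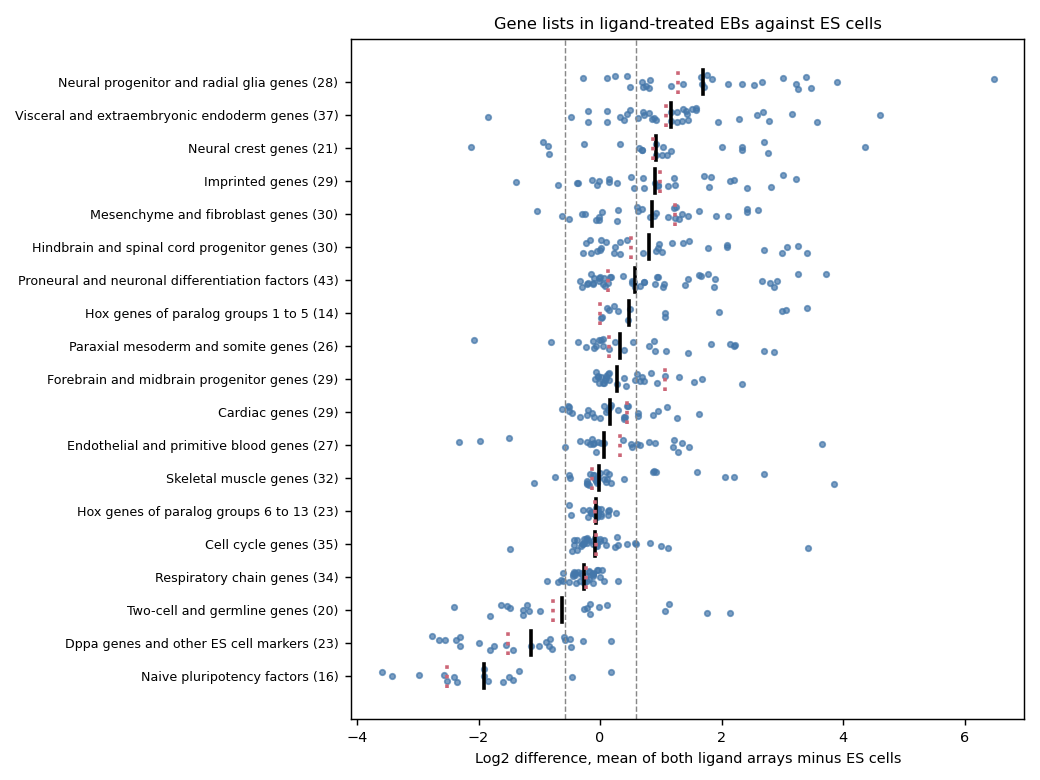
Log2 difference between the mean of both ligand arrays and the ES cell array for the members of 19 gene lists, 1 point per gene, with the number of genes measured in brackets. Black bars are list medians, dotted red bars are the medians of untreated EBs minus ES cells, and dashed lines mark 1.5-fold. The medians run from -1.90 for naive pluripotency factors to 1.69 for neural progenitor and radial glia genes. The red bar is to the right of the black one for forebrain and midbrain, mesenchyme, cardiac, and endothelial and primitive blood genes, and by less for some other lists.

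Genes that carry, make, degrade and sense RA lay on both sides of ES cells. Of 25 retinoid receptors, enzymes and binding proteins, 11 were higher, 3 were lower and 11 were within 1.5-fold, with a median of 0.47. Among the carriers, Crabp2, which hands RA to RAR, had 6.79 in ES cells and 10.46 (untreated), 11.19 (RA) and 11.76 (bexarotene) in EBs, 25.8-fold higher. Crabp1, which binds RA in the cytosol, had 10.26 in ES cells and 11.88 (untreated), 12.59 (RA) and 12.75 (bexarotene) in EBs, 5.33-fold higher. Rbp4, the retinol carrier of plasma, had 7.31 in ES cells and 9.63 (untreated), 9.90 (RA) and 10.07 (bexarotene) in EBs, 6.38-fold higher, and the RBP4 receptor Stra6 was 2.95-fold higher. All of these carriers were already higher in untreated EBs, and the 3 binding proteins were highest with bexarotene. Among the enzymes that degrade RA, Cyp26a1 had 5.75 in ES cells and 9.60 (untreated), 9.24 (RA) and 9.87 (bexarotene) in EBs, 14.0-fold higher, Cyp26c1 had 6.77 in ES cells and 7.54 (untreated), 8.0 (RA) and 8.30 (bexarotene) in EBs, 2.60-fold higher, and Cyp26b1 had 6.92 in ES cells and 6.82 (untreated), 8.72 (RA) and 8.63 (bexarotene) in EBs, 3.36-fold higher. Cyp26a1 was thus high with and without ligand, whereas Cyp26b1 was at the ES cell level without ligand. Rdh10, which makes retinaldehyde from retinol, was 3.76-fold and Dhrs3, which turns it back to retinol, 1.96-fold higher. The retinaldehyde dehydrogenases Aldh1a1, Aldh1a2 and Aldh1a3, which make RA, were within 1.5-fold at 0.47, -0.07 and -0.09.

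The receptors differed in direction. Rarb had 5.86 in ES cells and 8.17 (untreated), 7.79 (RA) and 8.44 (bexarotene) in EBs, 4.76-fold higher. Rarg had 10.48 in ES cells and 8.89 (untreated), 8.18 (RA) and 8.22 (bexarotene) in EBs, 4.85-fold lower. Rara was within 1.5-fold, with 9.31 in ES cells and 9.04 (untreated), 9.10 (RA) and 9.18 (bexarotene) in EBs. So 1 RAR was higher than ES cells, 1 was lower and 1 was near it, and the lowest signals of Rarg were those of the ligand arrays. Of the RXR genes, Rxra was at 0.52, Rxrb at -0.06 and Rxrg at -0.36, all within 1.5-fold. The corepressor Nrip1 was 2.39-fold higher, and the coactivators Ncoa3 and Ncoa1 were 2.15-fold and 1.52-fold lower. Lrat, Rdh11, Adh7 and Rbp2 were within 1.5-fold.

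**Figure D3:**
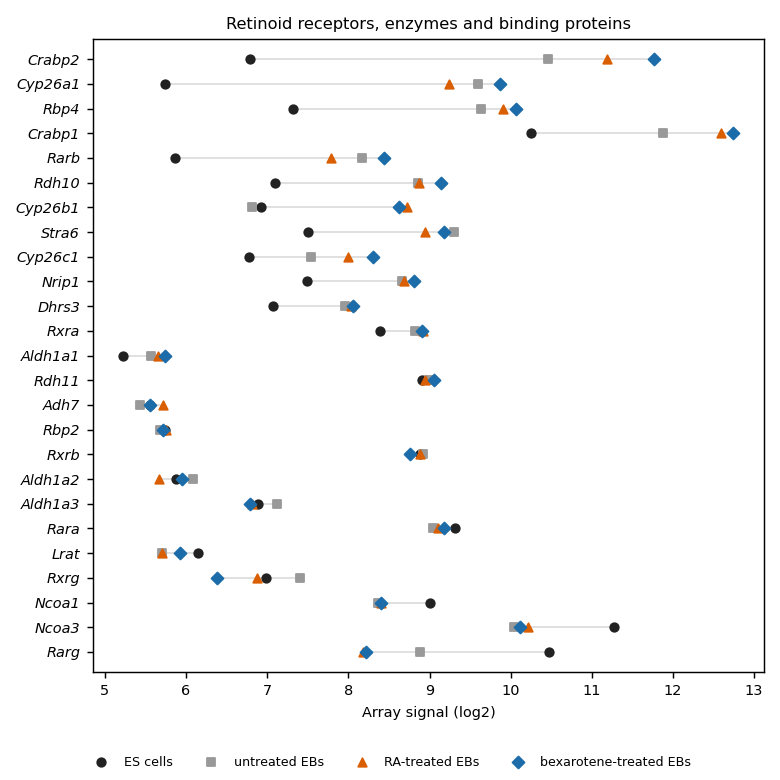
Log2 array signal of the 25 retinoid receptors, enzymes and binding proteins in ES cells (circles), untreated EBs (squares), RA-treated EBs (triangles) and bexarotene-treated EBs (diamonds), 1 array per condition, ordered from the highest to the lowest difference from ES cells. Crabp2 is at the top at 4.69 and Rarg at the bottom at -2.28, and Cyp26b1 is the gene with its ES and untreated arrays together on the left and both ligand arrays on the right.

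RAR and RXR bind direct repeats of a 6-base half-site, and 5 bases between the half-sites is the classical spacing for RAR. The promoters of the retinoid list and of the genes that differed only with ligand were read for such repeats, so that the sequence can be seen beside the values. The search covered 250 bases before the transcription start of RefSeq genes (GRCm38.p6) on both strands, with the half-site AGGTCA, the consensus of the family, or its known variants spelled AGTTCA or GGGTCA or else GGTTCA, and exactly 5 bases of any kind between a pair in the same direction. Of 32851 promoters of all genes, 29 (0.0883%) held a match. Cyp26a1 and Rarb were the matches in these sets, with any match on 1 chromosome left out of those shown. Both are printed with the repeat, spacer included, in capitals. That of Cyp26a1 (chr19:37697558-37697807, + strand) lies on the opposite strand and starts 32 bases before the start site, and that of Rarb (chr14:16575477-16575726, - strand) lies on the gene's own strand and starts 53 bases before it.
Cyp26a1: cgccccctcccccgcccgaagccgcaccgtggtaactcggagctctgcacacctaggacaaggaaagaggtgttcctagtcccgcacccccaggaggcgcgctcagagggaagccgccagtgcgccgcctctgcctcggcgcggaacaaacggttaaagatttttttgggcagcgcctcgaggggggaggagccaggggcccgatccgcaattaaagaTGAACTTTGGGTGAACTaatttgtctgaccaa
Rarb: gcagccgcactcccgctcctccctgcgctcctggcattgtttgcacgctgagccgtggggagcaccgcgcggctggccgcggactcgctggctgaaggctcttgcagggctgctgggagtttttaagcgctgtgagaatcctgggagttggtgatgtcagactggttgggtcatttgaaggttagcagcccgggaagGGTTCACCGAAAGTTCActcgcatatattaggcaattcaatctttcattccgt
Both genes were higher in all 3 EB arrays, and in both the bexarotene array was the highest and the RA array below the untreated one. None of 115 promoters of 84 genes that were higher only with ligand, and none of 40 promoters of 29 genes that were lower only with ligand, held a match with 5, 2 or 1 bases between the half-sites, beside 0.0883%, 0.174% and 0.164% of all promoters. Matches are rare in all promoters, so their absence from these sets is not a result about them. A match is a description of the letters in this window, and the absence of one says nothing of more distant sites.

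Genes outside this machinery that are known to respond to RA had a median of 0.93, with 13 of 24 higher and 3 lower. Meis2, a cofactor of Hox proteins, had 7.96 in ES cells and 10.29 (untreated), 11.37 (RA) and 11.56 (bexarotene) in EBs, 11.3-fold higher, and Meis1 had 7.44 in ES cells and 7.78 (untreated), 9.67 (RA) and 9.79 (bexarotene) in EBs, 4.90-fold higher. Nr2f2, an orphan nuclear receptor, had 6.11 in ES cells and 9.18 (untreated), 9.88 (RA) and 9.82 (bexarotene) in EBs, 13.3-fold higher. Each was highest in the ligand arrays. The lower genes were Gbx2, Stra8 and Skap2. Of 29 target genes of LXR, PPAR and other partners of RXR, 4 (13.8%) were higher and 7 (24.1%) lower (median 0.04). The shares of all genes were 10.2% and 9.36%. Cpt1a, the gate of fatty acids into mitochondria, had 10.05 in ES cells and 7.30 (untreated), 8.01 (RA) and 7.87 (bexarotene) in EBs, 4.32-fold lower, and the cholesterol exporter Abca1 had 8.99 in ES cells and 7.51 (untreated), 7.58 (RA) and 7.92 (bexarotene) in EBs, 2.36-fold lower. Both were low in every EB array.

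Endoderm genes divided by type. Of 37 genes of visceral and extraembryonic endoderm, the nutritive layer around the early embryo, 27 were higher and 1 lower (median 1.16). Ttr, a carrier of thyroxine and of the retinol complex, had 5.85 in ES cells and 9.45 (untreated), 9.67 (RA) and 9.18 (bexarotene) in EBs, 11.9-fold higher. Plat, the tissue plasminogen activator, had 5.88 in ES cells and 9.03 (untreated), 9.04 (RA) and 9.06 (bexarotene) in EBs, 8.95-fold higher. Pth1r, a receptor of parietal endoderm, was 6.89-fold higher, and Cited1 5.96-fold. These genes were about as high in untreated EBs, where 27 of the 37 were also higher and the median was 1.08. The lower gene was Trf, transferrin, at -1.84. Of 21 definitive endoderm and gut genes, 7 were higher with ligand, with a median of 0.33, against 14 and 0.93 in untreated EBs. Foxa2, a forkhead factor of endoderm and floor plate, had 6.62 in ES cells and 9.19 (untreated), 7.93 (RA) and 8.04 (bexarotene) in EBs, and Foxa1 had 7.11 in ES cells and 10.11 (untreated), 7.55 (RA) and 7.56 (bexarotene) in EBs. Foxa2 with ligand was between ES cells and untreated EBs, and Foxa1 was near ES cells. Cxcr4, a chemokine receptor of definitive endoderm and other migrating cells, was 6.14-fold higher, with 6.30 in ES cells and 8.84 (untreated), 8.99 (RA) and 8.83 (bexarotene) in EBs. Trophoblast genes showed no common direction, with 4 of 16 (25%) higher and 3 (18.75%) lower, beside 10.2% and 9.36% of all genes.

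Mesodermal lists had many members within 1.5-fold, where 80.4% of all genes lay. Of 26 paraxial mesoderm and somite genes, 11 (42.3%) were higher and 2 (7.69%) lower (median 0.33), beside 10.2% and 9.36% of all genes. Foxc2, a forkhead factor of somites, had 5.29 in ES cells and 8.24 (untreated), 7.16 (RA) and 7.69 (bexarotene) in EBs, 4.38-fold higher. Dll1, a Notch ligand of presomitic mesoderm and neural progenitors, had 6.70 in ES cells and 8.11 (untreated), 9.07 (RA) and 8.76 (bexarotene) in EBs, 4.64-fold higher. Tcf15, a bHLH factor of somites that ES cells also express, had 9.47 in ES cells and 7.06 (untreated), 7.49 (RA) and 7.31 (bexarotene) in EBs, 4.20-fold lower. Foxc2 was highest without ligand, Dll1 highest with it, and Tcf15 lower in all EBs. Several of the higher members, among them Pax3, Ebf2 and Dll1, are shared with neural tissue. Meox1, a homeobox gene of early somites, had 5.83 in ES cells and 5.94 (untreated), 6.18 (RA) and 7.11 (bexarotene) in EBs, so that its mean was past 1.5-fold through the bexarotene array. Of 24 primitive streak and tailbud genes, 5 (20.8%) were higher and 1 (4.17%) lower (median -0.05).

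Of 32 skeletal muscle genes, 8 (25%) were higher and 2 (6.25%) lower (median -0.02), beside 10.2% and 9.36% of all genes. The higher ones were transcription factors and their cofactors: Dach1, Pax3, Eya1, Dach2, Eya2, Pax7, Mef2a and Mef2c. Eya1, a transcriptional coactivator of placodes and somites, had 7.37 in ES cells and 9.63 (untreated), 9.44 (RA) and 9.70 (bexarotene) in EBs, 4.59-fold higher. Eya2 had 6.36 in ES cells and 8.97 (untreated), 8.02 (RA) and 7.88 (bexarotene) in EBs, 3.01-fold higher. Dach2 was 4.16-fold higher. The lower ones were Six4 and Des, the intermediate filament desmin, at -1.09 and -0.75. Of 29 cardiac genes, 7 (24.1%) were higher and 1 (3.45%) lower (median 0.16), against 11 higher and a median of 0.44 in untreated EBs. Isl1, a LIM factor of heart progenitors and motor neurons, had 6.08 in ES cells and 8.34 (untreated), 7.63 (RA) and 7.79 (bexarotene) in EBs. Tbx20, a T-box factor of the heart, had 6.85 in ES cells and 8.56 (untreated), 7.91 (RA) and 7.99 (bexarotene) in EBs. Actc1, cardiac actin, had 7.32 in ES cells and 9.10 (untreated), 7.82 (RA) and 8.07 (bexarotene) in EBs. All 3 were highest in untreated EBs.

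Lateral and intermediate mesoderm genes had 13 of 27 higher and 2 lower, with a median of 0.40. Osr1, a zinc finger gene of intermediate mesoderm, had 6.19 in ES cells and 7.22 (untreated), 6.92 (RA) and 8.63 (bexarotene) in EBs, a gap between the ligands of over 1.5-fold, and Foxf1, a forkhead gene of splanchnic mesoderm, had 7.45 in ES cells and 9.11 (untreated), 7.85 (RA) and 9.13 (bexarotene) in EBs. In both the bexarotene array was well above the RA array. Of 27 endothelial and primitive blood genes, 10 were higher and 3 lower (median 0.06). Cdh5, the cadherin of endothelial junctions, had 6.16 in ES cells and 8.30 (untreated), 7.61 (RA) and 7.64 (bexarotene) in EBs, 2.76-fold higher. Eng, a TGF-beta coreceptor that ES cells also express, had 10.11 in ES cells and 7.62 (untreated), 7.88 (RA) and 7.71 (bexarotene) in EBs, 4.98-fold lower, and Pecam1 had 9.15 in ES cells and 6.85 (untreated), 7.20 (RA) and 7.15 (bexarotene) in EBs, 3.92-fold lower. The embryonic globins Hbb-bh1 and Hba-x were 2.43-fold and 2.33-fold higher and had their highest signals, 7.77 and 9.13, in untreated EBs.

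Mesenchyme and fibroblast genes were higher in 19 of 30 and lower in 2, with a median of 0.85, against 20 higher and a median of 1.23 in untreated EBs. Postn, the matrix protein periostin, had 5.01 in ES cells and 8.89 (untreated), 7.87 (RA) and 7.35 (bexarotene) in EBs, 6.05-fold higher. Has2, the hyaluronan synthase, had 7.03 in ES cells and 10.61 (untreated), 9.14 (RA) and 9.78 (bexarotene) in EBs, 5.36-fold higher. Vcan, the proteoglycan versican, had 8.13 in ES cells and 10.83 (untreated), 10.50 (RA) and 10.59 (bexarotene) in EBs, 5.34-fold higher. In all 3 the untreated array was the highest. Of 24 collagen genes, 4 (16.7%) were higher and 0 lower, beside 10.2% and 9.36% of all genes. The higher ones were the basement membrane chains Col4a2 and Col4a1, 4.88-fold and 4.06-fold higher, and Col2a1 and Col26a1. Neural crest genes were higher in 15 of 21 and lower in 4. Beside Ednrb, Zic1, a zinc finger gene of dorsal neural tube, had 6.56 in ES cells and 8.36 (untreated), 9.31 (RA) and 9.34 (bexarotene) in EBs, 6.81-fold higher, and Tfap2b had 4.97 in ES cells and 6.0 (untreated), 7.24 (RA) and 7.37 (bexarotene) in EBs, 5.03-fold higher, both highest with ligand. Foxd3, which premigratory crest shares with ES cells, was 4.35-fold lower. Of 24 surface ectoderm, placode and keratin genes 10 were higher and 5 lower, and the keratins Krt19, Krt18 and Krt8 were 3.70-fold, 2.31-fold and 2.20-fold higher, with their highest signals in untreated EBs. Of 16 primed epiblast genes, 7 were higher and 2 lower. Car14, a membrane carbonic anhydrase, was 10.6-fold higher, and Sfrp2, a Wnt antagonist, had 8.33 in ES cells and 10.08 (untreated), 11.53 (RA) and 11.62 (bexarotene) in EBs, 9.48-fold higher.

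Among cadherins and related genes more were higher than lower. Of 33, 16 were higher and 2 lower (median 0.44). Besides Cdh2 and Cdh11, Cdh6 was 9.76-fold and the protocadherin Pcdh18 10.3-fold higher. Cdh1, which encodes E-cadherin, had 11.02 in ES cells and 10.72 (untreated), 10.32 (RA) and 10.14 (bexarotene) in EBs, 1.73-fold lower, and the tight junction protein Cldn4 was 2.06-fold lower. Cdh1 in untreated EBs was within 1.5-fold of ES cells.

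Signalling genes were on both sides of ES cells. Of 48 BMP, TGF-beta and Nodal pathway genes, 21 were higher and 9 lower (median 0.45). Ligands differed widely: Bmp2 had 5.33 in ES cells and 9.08 (untreated), 7.69 (RA) and 8.22 (bexarotene) in EBs, 6.18-fold higher, and Tgfb2 had 5.83 in ES cells and 10.40 (untreated), 7.68 (RA) and 8.41 (bexarotene) in EBs, 4.65-fold higher, while Bmp4 had 11.31 in ES cells and 9.97 (untreated), 9.63 (RA) and 10.55 (bexarotene) in EBs, 2.33-fold lower. Bmp2 and Tgfb2 were highest in untreated EBs. Fst, which traps activins, had 6.85 in ES cells and 9.75 (untreated), 9.96 (RA) and 10.37 (bexarotene) in EBs, 9.94-fold higher, and the receptors Tgfbr3 and Tgfbr1 were 4.99-fold and 3.25-fold higher. Nodal, its relative Gdf3 and its coreceptor Tdgf1 were 3.56-fold, 6.76-fold and 8.65-fold lower. Of 49 Wnt pathway genes, 19 were higher and 3 lower (median 0.35). The receptors Fzd2 and Fzd3 were 7.12-fold and 5.84-fold higher, and the R-spondin receptor Lgr5 had 5.71 in ES cells and 9.43 (untreated), 7.90 (RA) and 7.89 (bexarotene) in EBs, 4.55-fold higher.

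FGF pathway genes were divided. Of 30, 7 (23.3%) were higher and 9 (30%) lower (median 0.05), beside 10.2% and 9.36% of all genes. Next to Fgf4 and Spry4, Etv4, a transcription factor at the end of the pathway, had 9.70 in ES cells and 6.79 (untreated), 6.95 (RA) and 6.92 (bexarotene) in EBs, 6.82-fold lower, and Etv5 was 2.28-fold lower. Fgfr3, a receptor of neural progenitors, had 7.11 in ES cells and 8.37 (untreated), 9.19 (RA) and 9.10 (bexarotene) in EBs, 4.10-fold higher, and Flrt3 was 3.89-fold higher. The Notch list, 24 genes, had 13 higher and 3 lower and a median of 0.80. Nrarp, a feedback inhibitor of Notch, had 6.85 in ES cells and 7.84 (untreated), 9.44 (RA) and 9.06 (bexarotene) in EBs, 5.27-fold higher. Hey2 and Hey1, repressors downstream of Notch, were 5.21-fold and 4.95-fold higher, the coactivator Maml2 7.19-fold and the ubiquitin ligase Dtx4 4.57-fold. Rbpj, the DNA-binding partner of Notch, was 1.94-fold lower. Nrarp, Dll1 and Dtx4 were higher with ligand than without.

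Chromatin regulators were divided. Of 39, 9 (23.1%) were higher and 10 (25.6%) lower (median -0.08), beside 10.2% and 9.36% of all genes. Smarca2, an ATPase of the BAF complexes, had 6.33 in ES cells and 9.05 (untreated), 9.30 (RA) and 9.42 (bexarotene) in EBs, 8.19-fold higher, and the Polycomb protein Bmi1 had 6.69 in ES cells and 8.01 (untreated), 8.33 (RA) and 8.50 (bexarotene) in EBs, 3.31-fold higher. Tet1, which oxidises methylcytosine, had 11.90 in ES cells and 10.19 (untreated), 10.17 (RA) and 10.04 (bexarotene) in EBs, 3.47-fold lower, Tet2 was at -1.58 and Tet3 at 1.23. Among Polycomb genes Cbx8 and Cbx2 were higher while Cbx7, Phc1, Eed and Jarid2 were lower. Imprinted genes were mostly higher, 17 of 29 with 2 lower and a median of 0.90. Igf2, the fetal growth factor, had 9.04 in ES cells and 12.25 (untreated), 11.95 (RA) and 12.16 (bexarotene) in EBs, 8.05-fold higher. Dlk1, a noncanonical Notch ligand of progenitors, had 8.30 in ES cells and 10.07 (untreated), 10.38 (RA) and 10.51 (bexarotene) in EBs, 4.42-fold higher. Airn, the antisense RNA of the Igf2r locus, was 5.31-fold and the zinc finger gene Peg3 4.60-fold higher, while Phlda2, a restrainer of placental growth, was 2.62-fold lower. The EB arrays were alike for these genes.

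Cell cycle and respiratory chain genes were mostly within 1.5-fold, by shares near the 80.4% of all genes. Of 35 cell cycle genes, 5 were higher and 1 lower (median -0.08). The cyclin gene Ccnd2 had 7.99 in ES cells and 11.36 (untreated), 11.34 (RA) and 11.48 (bexarotene) in EBs, 10.7-fold higher, and Ccne1 had 11.65 in ES cells and 10.11 (untreated), 10.17 (RA) and 10.16 (bexarotene) in EBs, 2.79-fold lower, each with nearly the same signal in all EBs. Ccnd1 was 1.77-fold higher. Of 25 glycolysis and hypoxia genes 7 were higher and 3 lower, led by Ndrg1 at 1.99 and Bnip3 at 1.22. Of 34 respiratory chain genes 0 were higher and 5 lower (median -0.26). Stress and immediate early genes had 4 of 21 higher and 7 lower, with Jun 3.03-fold higher and Chac1, Gadd45a and Dusp1 3.58-fold, 2.94-fold and 2.39-fold lower. Among 14 housekeeping genes 12 were within 1.5-fold, with a median of -0.08. The exceptions were B2m, the light chain of MHC class I, with 10.09 in ES cells and 11.15 (untreated), 11.35 (RA) and 11.32 (bexarotene) in EBs, and Hprt, of purine salvage, with 10.75 in ES cells and 9.32 (untreated), 9.41 (RA) and 9.32 (bexarotene) in EBs.

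To separate genes that differed from ES cells with ligand alone, the untreated array was used as the reference. Of the called genes, 346 higher and 443 lower genes were within 1.5-fold of ES cells in untreated EBs. Being within the threshold in one kind of EB and past it in the other can rest on a small gap, so a gene was counted as ligand-only where the ligand mean was also past 1.5-fold from untreated EBs. This left 123 higher genes, 0.617% of all genes compared, and 44 lower genes, 0.221%. In 85 and 29 of them the RA and the bexarotene array each met every criterion. Signals below the array median on all arrays made up 38 and 14.

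The higher genes of this class with the largest differences included several Hox genes. Beside Hoxa2, Hoxb2, Hoxb1, Hoxb3, Meis1, Neurod4, Dcx and Glra1, they included Gpm6b, a membrane protein of neurons and oligodendrocytes, with 6.34 in ES cells and 6.78 (untreated), 9.55 (RA) and 8.95 (bexarotene) in EBs, 7.52-fold higher. Nefm, the medium neurofilament, had 5.59 in ES cells and 5.65 (untreated), 7.89 (RA) and 7.58 (bexarotene) in EBs, 4.42-fold higher. Pantr1, a noncoding RNA next to Pou3f3, had 5.14 in ES cells and 5.38 (untreated), 8.30 (RA) and 7.58 (bexarotene) in EBs, 6.95-fold higher. In each the RA array was the highest. That the ES and untreated arrays lie together below the ligand arrays is largely fixed by the choice of the class. Hoxaas2, an antisense RNA of the Hoxa cluster, had 5.87 in ES cells and 6.05 (untreated), 7.90 (RA) and 8.41 (bexarotene) in EBs, 4.88-fold higher, with the bexarotene array the highest as in Hoxa2. Clvs1 was 5.47-fold, Fam181a 4.09-fold and the secretory granule protein Scg3 3.86-fold higher. Of the lists, the neuronal cytoskeleton gave 7 ligand-only genes (Tubb3, Dcx, Gap43, Nefl, Nefm, Elavl3 and Celf3). The proneural factors gave 6 (Neurog1, Neurod4, Nhlh2, Insm1, Myt1 and St18) and the Hox genes of groups 1 to 5 another 6. Tubb3 and Elavl3 were in the class through the RA array, at 2.09-fold and 2.00-fold above ES cells. With bexarotene they were within 1.5-fold, at 1.43-fold and 1.44-fold. Wnt7a, a Wnt ligand of neural tissue, had 5.74 in ES cells and 5.73 (untreated), 7.62 (RA) and 7.31 (bexarotene) in EBs, and Cyp26b1, given above, stood alone in the retinoid list.

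The lower genes of this class were fewer and their differences smaller. Slc27a2, a fatty acid transporter and acyl-CoA synthetase, had 8.53 in ES cells and 8.06 (untreated), 6.79 (RA) and 6.30 (bexarotene) in EBs, 3.97-fold lower. Fzd5, a Wnt receptor, had 9.13 in ES cells and 9.50 (untreated), 7.29 (RA) and 7.27 (bexarotene) in EBs, 3.62-fold lower. The untreated array of Fzd5 was above ES cells, while that of Slc27a2 was below but within 1.5-fold. Nptx2, a neuronal pentraxin, had 9.12 in ES cells and 8.81 (untreated), 7.44 (RA) and 7.23 (bexarotene) in EBs, 3.45-fold lower. Foxh1, the DNA-binding partner of Smads in Nodal signalling, had 9.12 in ES cells and 8.68 (untreated), 7.82 (RA) and 7.50 (bexarotene) in EBs, 2.74-fold lower. Tgfb1, a TGF-beta ligand, had 8.74 in ES cells and 8.53 (untreated), 7.35 (RA) and 7.59 (bexarotene) in EBs, 2.41-fold lower. All 3 had their 2 lowest signals in the ligand arrays, which the choice of the class largely fixes. Coch, Sec14l4, Gpx2, Pdzd2, Smim3, Myo5c, Myrf, Ttc27 and Pid1 were between 2.07-fold and 2.53-fold lower.

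**Figure D4:**
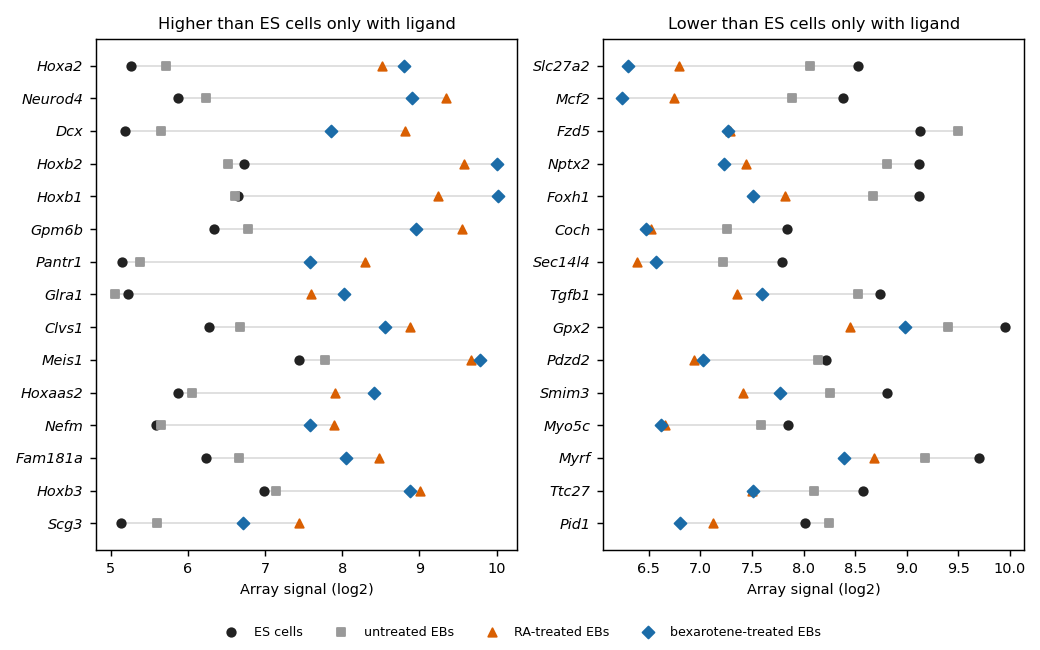
Log2 array signal of the 15 genes with the largest higher and the 15 with the largest lower difference from ES cells among genes that differed only with ligand, in ES cells (circles), untreated EBs (squares), RA-treated EBs (triangles) and bexarotene-treated EBs (diamonds), 1 array per condition. The gap between the ES and untreated pair and the ligand pair, which the choice of genes fixes, is wide for Hoxb2, Hoxa2 and Hoxb1 on the left.

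The reverse class held genes past 1.5-fold from ES cells in untreated EBs that were within 1.5-fold of ES cells with ligand and past 1.5-fold between the 2 kinds of EB. It had 203 genes, 1.02% of all, of which 180 were higher in untreated EBs and 23 lower. The higher ones were led by Cer1, a secreted antagonist of Nodal from the anterior endoderm, with 5.48 in ES cells and 9.82 (untreated), 5.78 (RA) and 5.84 (bexarotene) in EBs. Foxd4, a forkhead gene, had 6.04 in ES cells and 9.17 (untreated), 6.24 (RA) and 6.04 (bexarotene) in EBs, and Aplnr, the apelin receptor of mesoderm and vessels, had 6.76 in ES cells and 9.94 (untreated), 6.62 (RA) and 7.59 (bexarotene) in EBs. In each the untreated array stood far above the others, an order that the choice of the class largely fixes. Shh, the ventral signal of the neural tube, had 7.11 in ES cells and 9.52 (untreated), 7.55 (RA) and 7.33 (bexarotene) in EBs. The forebrain and midbrain list gave 9 of this class: Otx2, Six3, Lhx5, Hesx1, Dmbx1, Pax5, Barhl2 and Nkx2-1, higher in untreated EBs, and En2, lower.

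The 23 genes that were lower in untreated EBs alone included several of neurons. Neurod1, a bHLH factor of neuronal differentiation, had 8.28 in ES cells and 6.11 (untreated), 8.13 (RA) and 7.78 (bexarotene) in EBs. Ina, the neurofilament protein internexin, had 10.41 in ES cells and 8.75 (untreated), 10.72 (RA) and 10.30 (bexarotene) in EBs. Tubb2b, a tubulin of developing brain, had 11.08 in ES cells and 10.15 (untreated), 11.59 (RA) and 11.42 (bexarotene) in EBs. These genes had a substantial signal in ES cells, the lowest in untreated EBs and, with ligand, one near or above that of ES cells. Apart from the level in ES cells, this order follows largely from the choice of the class. L1cam, an adhesion molecule of axons, had 7.33 in ES cells and 6.54 (untreated), 7.26 (RA) and 7.15 (bexarotene) in EBs, and Slc18a3, the vesicular acetylcholine transporter, had 7.32 in ES cells and 6.62 (untreated), 7.59 (RA) and 7.52 (bexarotene) in EBs. Against the ES cell array alone, none of these would appear as a gene that differed with ligand.

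**Figure D5:**
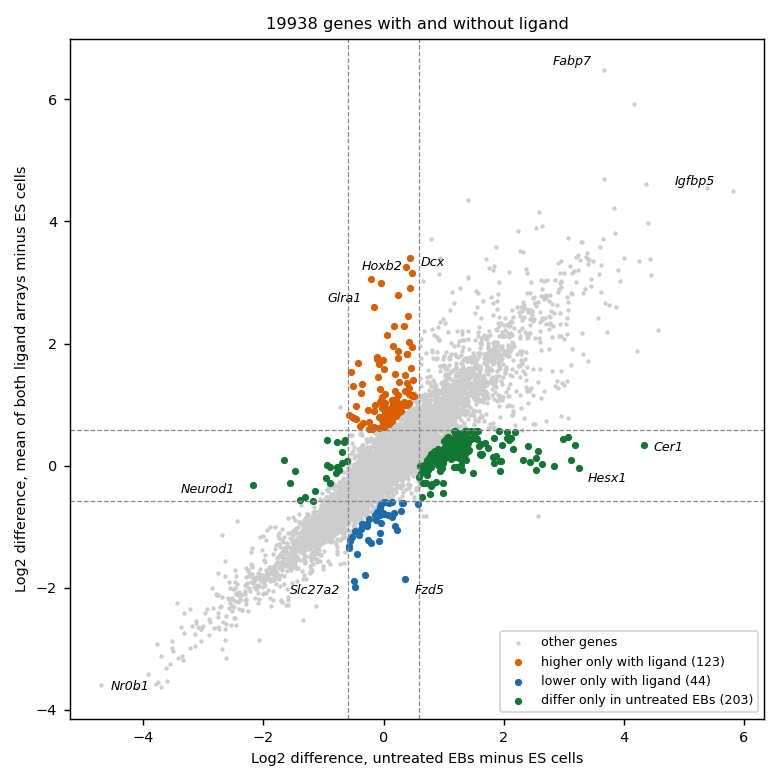
Log2 difference from ES cells in untreated EBs (horizontal axis) and in the mean of both ligand arrays (vertical axis) for 19938 genes, 1 point per gene, with dashed lines at 1.5-fold. Genes that differed only with ligand are orange (123 higher) and blue (44 lower), genes that differed only in untreated EBs are green (203), and the differences on both axes share the ES cell array.

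MicroRNA genes are represented by probe sets that read their transcripts, so a signal here is not a measure of the mature RNA. Of 302 measured, 270 have a sequence in the RefSeq table, and of these 10 (3.70%) were past 1.5-fold higher and 18 (6.67%) lower, beside 10.2% and 9.36% of all genes, and 4 and 5 were past 2-fold. Mature forms of those described below, which were past 2-fold or differed only with ligand, are shown as RefSeq gives them (GRCm38.p6), 5′ to 3′, with the seed, bases 2 to 8, in capitals.
mmu-miR-219a-5p: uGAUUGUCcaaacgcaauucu
mmu-miR-181b-5p: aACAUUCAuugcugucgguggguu
mmu-miR-302c-3p: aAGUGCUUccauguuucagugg
mmu-miR-302a-5p: aCUUAAACgugguuguacuugc
mmu-miR-19b-3p: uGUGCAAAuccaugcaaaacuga
mmu-miR-19a-3p: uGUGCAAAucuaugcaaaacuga
mmu-miR-363-3p: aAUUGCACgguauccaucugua
mmu-miR-300-3p: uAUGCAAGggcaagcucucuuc
mmu-miR-382-5p: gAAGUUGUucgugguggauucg
mmu-miR-377-3p: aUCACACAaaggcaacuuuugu
mmu-miR-6516-5p: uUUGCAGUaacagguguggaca
The neural microRNA gene Mir219a-2 (chr2, - strand) had 6.54 in ES cells and 6.44 (untreated), 8.20 (RA) and 8.43 (bexarotene) in EBs, 3.44-fold higher and in the ligand-only class. Mir181b-1 (chr1, + strand) had 3.85 in ES cells and 4.48 (untreated), 5.75 (RA) and 6.10 (bexarotene) in EBs, 4.22-fold higher. Mir302c (chr3, + strand), of the cluster expressed in epiblast, had 3.58 in ES cells and 5.97 (untreated), 5.18 (RA) and 4.51 (bexarotene) in EBs, 2.40-fold higher. The first 2 were highest in the ligand arrays, and Mir302c was highest in untreated EBs. Mir19b-1 and Mir19a, neighbours on chr14 in the cluster of miR-17 to miR-92, were lower only with ligand. Mir19b-1 had 7.34 in ES cells and 6.96 (untreated), 6.16 (RA) and 6.46 (bexarotene) in EBs, and Mir19a had 6.33 in ES cells and 6.29 (untreated), 5.29 (RA) and 5.49 (bexarotene) in EBs. Their mature forms share the seed GUGCAAA, as the printed sequences show, and no other pair of the sequences in this set shared one. Mir363 (chrX, - strand) was also lower only with ligand, with 4.87 in ES cells and 5.01 (untreated), 3.99 (RA) and 4.06 (bexarotene) in EBs. Mir302a, the neighbour of Mir302c in the same cluster, had 3.38 in ES cells and 5.35 (untreated), 4.88 (RA) and 4.05 (bexarotene) in EBs, 2.11-fold higher, and Mir6516 (chr11, + strand) had 8.73 in ES cells and 8.05 (untreated), 7.66 (RA) and 7.55 (bexarotene) in EBs, 2.18-fold lower. Mir302a was highest in untreated EBs and Mir6516 in ES cells. Mir300, Mir382 and Mir377, which lie on chr12 (+ strand), were 2.40-fold, 2.09-fold and 2.03-fold lower, with lower signals in all EBs than in ES cells. The signals of Mir181b-1, Mir302c, Mir302a, Mir19a, Mir363 and Mir300 were below the array median on all 4 arrays.

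In 5 genes untreated and ligand-treated EBs were past 1.5-fold from ES cells in opposite directions. Ebf1, a helix-loop-helix factor of early neurons and other tissues, had 8.48 in ES cells and 7.76 (untreated), 9.65 (RA) and 9.22 (bexarotene) in EBs, and H60b had 6.70 in ES cells and 9.27 (untreated), 5.52 (RA) and 6.25 (bexarotene) in EBs. Trh, the thyrotropin-releasing hormone, had 10.50 in ES cells and 11.21 (untreated), 9.94 (RA) and 9.40 (bexarotene) in EBs, Slc9a7, a sodium and proton exchanger, had 7.51 in ES cells and 8.17 (untreated), 6.74 (RA) and 6.63 (bexarotene) in EBs, and the noncoding RNA Platr25 had 7.16 in ES cells and 7.77 (untreated), 6.21 (RA) and 6.67 (bexarotene) in EBs. The untreated array of Ebf1 lay below ES cells and both ligand arrays above, and the other 4 had the reverse order. In Trh the RA array, and in H60b and Platr25 the bexarotene array, was within 1.5-fold of ES cells.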

How the data were processed

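RNA from 4 cultures of mouse cells was read on 1 Affymetrix array each. The deposited table holds log2 signal per probe set. The authors corrected it for background, normalized it and combined the probes of each set across 4 arrays, by RMA in the published methods and by GCRMA in Affymetrix Expression Console in the submitters' processing notes. Values were used as deposited, so a difference shared by all EBs can also carry the normalization, and the arrays' number limits the precision.

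Groups were taken from the sample labels. A gene with several probe sets (999 of 19938) was represented by whichever had the highest mean signal. Of the genes, 19919 match RefSeq by symbol or identifier. Platform annotation gives several symbols for 1621 probe sets and none for 12146, which were left out. The ligand mean minus ES cells was compared with a threshold of 1.5-fold, and 42 gene lists with 1067 genes, of which 991 were measured and the others not analysed here, were described by counts and medians. Some genes stand in several lists. The members and lists were chosen with earlier results of these data known.

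Genes were named by rule: the 20 largest differences in each direction, the 15 largest in each direction among ligand-only genes, up to 6 members of each list, every retinoid gene, genes in opposite directions with and without ligand and microRNA genes past 2-fold with a RefSeq sequence. The first 2 parts left out gene models, small RNAs and genes below the array median. Other genes, among them Sox2, Stmn2, Cer1, Neurod1, Ina and Wnt7a, were named after their values were seen, and 1 ligand-only gene is not reported here.

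The procedure was run on simulated arrays of 19938 genes with an SD of 0.1 and genes set 3-fold apart. It recovered 120 of 120 higher, 80 of 80 lower and 40 of 40 ligand-only genes with 0 false calls. A 3-fold gap at that SD lies far past 1.5-fold, so the outcome was fixed by the setting. The run checks the code, and says nothing of calls near the threshold or of errors in the real arrays. Alternatives were a 2-fold threshold, each ligand array alone, both past the threshold, quantile normalization, loess (span 0.3), a floor under the 25th percentile, leaving out probe sets below the median, and the mean of probe sets or probe sets in place of genes. Python 3.11.15, numpy 2.4.6, pandas 2.3.3, statsmodels 0.14.6 and matplotlib 3.10.9 were used.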

Additional observations from a re-analysis of the deposited data

Results flagged for a closer look

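For 2 genes the untreated array lay on 1 side of ES cells and both ligand arrays on the other, each past 1.5-fold. Ebf1 was above ES cells with ligand, at 0.96 on the log2 scale, and below them in untreated EBs, at -0.72. Slc9a7 was below ES cells with ligand, at -0.83, and above them without, at 0.66. With 1 array per condition, the difference between untreated and ligand-treated EBs was not tested, and both values share the ES cell array.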

How the results depend on the processing

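At a threshold of 2-fold, 1043 genes were higher and 693 lower with ligand, 62 and 9 differed only with ligand, and 93 differed only in untreated EBs. Requiring both ligand arrays past the threshold left 29 of the genes lower only with ligand, and leaving out probe sets below the median left 127 of those that differed only in untreated EBs. Under the other alternatives each of these 5 counts stayed within 1.5 times its value. With the RA array alone 160 genes were higher only with ligand, and with the bexarotene array alone 110. Of 293 list medians under the alternatives, 268 moved by no more than the gap between the RA and bexarotene medians of the list, or 0.05 where that gap was smaller, and 25 moved by more. Without probe sets below the median, 14 medians moved by over 1.5 times in the same direction, among them those of proneural factors (0.57 to 1.40), retinoid genes (0.47 to 1.26), Hox groups 1 to 5 (0.48 to 2.47), Wnt genes (0.35 to 0.84) and two-cell and germline genes (-0.62 to -1.19), and the medians of primitive streak (-0.05 to 0.42) and skeletal muscle genes (-0.02 to 0.40) turned their sign. The median of the LXR and PPAR targets turned from 0.04 to -0.05 with the bexarotene array alone and to -0.02 with the mean of probe sets. The skeletal muscle median also turned with either ligand array alone and with loess, and list medians this close to 0 have no settled direction. With the floor, that of primitive streak genes came to 0.0020, and that of two-cell and germline genes to -0.24. With the bexarotene array alone, the median of the neuronal cytoskeleton list was 0.52 in place of 0.79. The Hox list of groups 6 to 13 has no value without probe sets below the median, since no member was left. Of 777 values of named genes, 19 moved by more than the gap between the ligand arrays, and none past 1.5-fold turned its direction. Many of these values could not move. Each ligand array alone lies within that gap of the mean by construction. A gene keeps its value without probe sets below the median, and with the mean of probe sets where it has 1 probe set. The count therefore bears on the normalizations, the floor and genes with several probe sets. The largest shifts were those of Fat3 (4.15 to 2.80, mean of probe sets) and Platr8 (-3.58 to -2.27, floor). No paired analysis was possible because each condition has 1 array. Depth does not apply to arrays, and low signals bound what can be seen: 38 of 123 and 14 of 44 ligand-only genes were below the array median.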

Other observations

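Some ligand-only genes lie outside every list described above. Among higher ones, Cyp1b1, a cytochrome P450 that oxidises retinoids and steroids, had a signal of 5.50 in ES cells and 5.88 (untreated), 6.98 (RA) and 7.70 (bexarotene) in EBs. Tagln3, a neuronal relative of transgelin, had 7.36 in ES cells and 7.75 (untreated), 9.31 (RA) and 9.09 (bexarotene) in EBs. Fez1, which links cargo to kinesin in axons, had 7.20 in ES cells and 6.65 (untreated), 8.96 (RA) and 8.49 (bexarotene) in EBs. Each was highest in the ligand arrays, which the choice of the class largely fixes. The bexarotene array was on top for Cyp1b1 and the RA array for Tagln3 and Fez1. Among lower ones, Stat6, the transducer of interleukin 4, had 9.18 in ES cells and 9.04 (untreated), 8.34 (RA) and 8.23 (bexarotene) in EBs, and Flt4, the VEGF receptor of lymphatic vessels, had 7.63 in ES cells and 7.71 (untreated), 6.89 (RA) and 6.74 (bexarotene) in EBs. These genes were chosen after their values were seen.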
